A study of Mus musculus with 45 samples.

Results

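Dendritic cells lacking Bat3 were set against wild-type cells after both had been kept with 4PBA, using the expected read counts of 10 of the 45 RNA-seq libraries in the series, 5 for each genotype. The libraries were chosen by their titles, which name 4PBA, the genotype and a replicate number. All cells were dendritic cells of C57BL/6 mice grown from bone marrow with 20 ng/ml GM-CSF, taken from day 9 cultures, treated for 8 h and sorted as live cells with high CD11c, with 1 µg of total RNA going into each library. The WT group is labelled wild type, and the KO group is labelled Bat3 fl/fl CD11c Cre, so that Cre is driven by the promoter of the CD11c gene and deletion depends on that promoter having been active in each cell. Animal ages and the number of marrow donors behind a replicate are not stated, so p-values measure the spread between libraries called biological replicates. The labels do not state whether lipopolysaccharide (LPS) was given together with 4PBA.

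Bat3 is an older name of Bag6, under which the gene stands in the files. BAG6 is a cytosolic chaperone that holds proteins with exposed hydrophobic stretches. With its partners it hands tail-anchored membrane proteins to the endoplasmic reticulum (ER) or passes proteins that failed to reach a membrane to the proteasome, and it also binds the cytoplasmic tail of the immune receptor Tim-3. 4PBA, 4-phenylbutyrate, is a small fatty acid used as a chemical chaperone that eases protein folding in the ER, and it also inhibits histone deacetylases. The Bag6 gene lies within the major histocompatibility complex (MHC) of the mouse, among genes of antigen presentation.

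Library totals ran from 2098083 to 3842844 expected counts in WT and from 1945718 to 4081185 in KO, and levels below are CPM, counts scaled to a common library total after scaling. The codes of the libraries, a letter with a number, were taken to be plate positions, which the labels do not say. WT libraries stood in row C, columns 2 to 6, and KO libraries in row G, columns 4 to 8, so none lay at the edge of a plate, but genotype and row cannot be told apart. Macrophage markers summed to between 5204 and 6146 CPM in WT and between 3525 and 5720 CPM in KO libraries, with Cd163 and Vsig4 at 0. Dendritic cell markers summed to between 1984 and 3343 CPM in WT and between 1888 and 4141 CPM in KO libraries. Of the defining genes of B cells, Ms4a1, Pax5 and Ebf1 were at 0, and natural killer and erythroid markers summed to 2.232 CPM at most. Other lists held signal. In WT and KO libraries, neutrophil markers summed to 546.2 to 1035 and 417.4 to 799.6 CPM. Megakaryocyte markers summed to 210.2 to 591.5 and 150.6 to 404.2 CPM. Those of basophils and mast cells summed to 186.7 to 333 and 77.92 to 244.2 CPM. Plasmacytoid dendritic cell markers summed to 1169 to 1300 and 922.6 to 1164 CPM. The whole B cell list reached 85.51 to 112.5 and 107.3 to 124.5 CPM. The T cell list reached 340 to 397.5 and 344 to 374.5 CPM. KO replicate 4 had the lowest KO sum for macrophage, for dendritic cell and for basophil and mast cell markers. Its neutrophil, megakaryocyte, plasmacytoid dendritic cell and B cell sums lay inside the KO range, at 569.5, 316.4, 1081 and 121.6 CPM. Its T cell sum was the highest among KO libraries.

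Bag6, the targeted gene, had 9.80, 14.6, 19.6, 15.5 and 13.5 CPM in the 5 WT libraries and 7.01, 6.64, 6.74, 12.4 and 4.85 CPM in the 5 KO libraries. The library labelled KO replicate 4 lay within the WT range, and the other 4 lay below every WT library. KO replicate 4 also lay within the WT range in medium, with LPS and with 4µ8C, and whether deletion was incomplete or a label is wrong was not tested, a doubt that touches each KO mean over 5 libraries. The log2 fold change was -0.91 ± 0.25 (SE, n = 5 each) and did not pass across all genes (edgeR quasi-likelihood test, adjusted p = 0.072), and an exact permutation test of the means, two-sided over all divisions of the 10 libraries, gave p = 0.016 where 0.0079 is the smallest it allows. These values rest on 15 to 58 expected counts per library, and the labels do not name the deleted exons. Genes below are given with every library labelled KO. Where libraries are listed singly, the value of replicate 4 stands beside the others, and elsewhere it is part of the KO mean. Some calls given only as means were lost without replicate 4, those of Gstt1, Gda, Selm and Siglec1 among them. For Pim1, KO replicate 4 had 285 CPM, where the highest WT library had 29.1 CPM. In KO replicate 4 the levels of H2-T10 and H2-T23, given below, also lay outside the WT range, on the side of the other KO libraries.

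Few genes were called between the genotypes in the fit of all libraries, and other settings, given below, called 9 to 198. Of 10287 genes tested, 51 were called at an adjusted p under 0.05 (0.496%), 19 of them higher in KO (0.185%) and 32 lower (0.311%), while 1091 had an unadjusted p under 0.05. The median log2 fold change over all genes was 0.00, with 5159 positive and 5128 negative. Of the called genes, 16 higher and 29 lower ones had no overlap between the 5 WT and the 5 KO libraries, a separation seen in 377 of all genes (3.66%). The calls rest on these same libraries, so their separation follows in large part from the selection. Most called genes named below were chosen among those without overlap, so its mention for them adds no evidence. The plot of the called genes shows a long upper end made of genes of chromosome 17, the chromosome of Bag6, and lower genes that mostly lie elsewhere. Without the library labelled KO replicate 4 the count was 22, with 9 higher and 13 lower, of which 20 were among the 51. On simulated counts of this comparison, with 10219 genes tested, the test found 23.9% of the 67 genes set to a 1.5-fold change, 67.2% of the 67 set to 2-fold, and for 4-fold 95.5% of the 66. The simulated counts were drawn independently for each gene and library around the group means. Shifts shared by many genes of a library are not in them, so these shares may not hold for the real libraries.

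**Figure D1:**
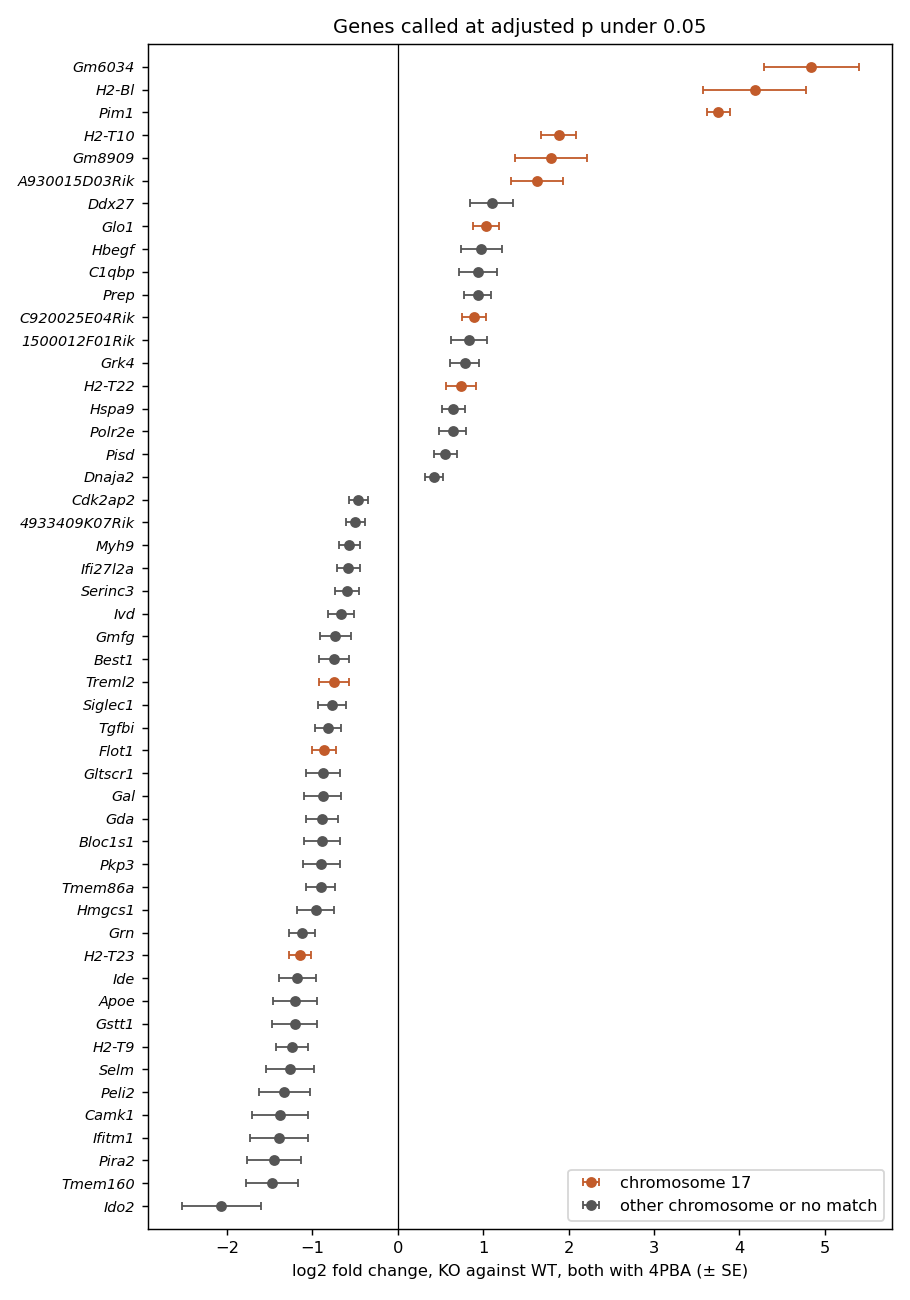
Log2 fold change of each of the 51 called genes, KO against WT with 4PBA (horizontal axis; dots with SE bars, 5 libraries per genotype), in colour for genes of chromosome 17 and grey for the rest. The 3 largest values, Gm6034 at 4.84, H2-Bl at 4.18 and Pim1 at 3.75, belong to chromosome 17, and the lowest value is that of Ido2 at -2.07.

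Pim1 had the smallest p of any gene. It encodes a serine/threonine kinase that is switched on as a gene by cytokine signals through STAT factors and promotes growth and survival. Its level was 29.1, 25.2, 24.997, 28.4 and 19.3 CPM in the WT libraries and 346, 392, 367, 285 and 323 CPM in the KO libraries. Every KO library, replicate 4 included, stood far above every WT library. The rise was 13.5-fold (log2 fold change 3.75 ± 0.14 SE, edgeR adjusted p = 2.25e-28). Its relatives did not follow: Pim2 averaged 17.6 ± 5.26 CPM in WT libraries and 22.3 ± 3.34 CPM in KO libraries (SD, n = 5 each), and Pim3 averaged 174 ± 15.5 and 211 ± 31.1 CPM, neither passing the test (edgeR adjusted p = 0.66 and 0.60). Of 10 genes on a list of Pim kinases and proteins they phosphorylate or regulate, Pim1 was the only one called, and the list's median log2 fold change was 0.13. The cell cycle inhibitor Cdkn1a, on that list, did not overlap between genotypes yet missed the threshold, with 1323 ± 68.7 CPM in WT and 1463 ± 50.1 CPM in KO (edgeR adjusted p = 0.72).

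The stretch around the upstream start of Pim1 in RefSeq (GRCm38.p6, chr17:29490535-29490834, plus strand, 250 bases before the start to 50 after) is printed because this gene leads the comparison. Capitals mark GC boxes, the letters GGGCGG on either strand.
Pim1 promoter: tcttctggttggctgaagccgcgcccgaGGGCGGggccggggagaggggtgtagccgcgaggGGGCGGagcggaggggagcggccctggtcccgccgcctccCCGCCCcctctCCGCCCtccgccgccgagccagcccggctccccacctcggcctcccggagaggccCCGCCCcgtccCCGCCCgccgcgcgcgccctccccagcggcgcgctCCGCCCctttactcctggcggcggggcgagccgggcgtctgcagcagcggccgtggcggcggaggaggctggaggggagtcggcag
It held 7 GC boxes, and 35.7% of 32851 promoters of this length held at least 1. Neither this stretch nor that of the gene's second start held the STAT-type letters TTCNNNGAA, present in 8.30% of promoters, which says only that these letters are not in these windows.

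**Figure D2:**
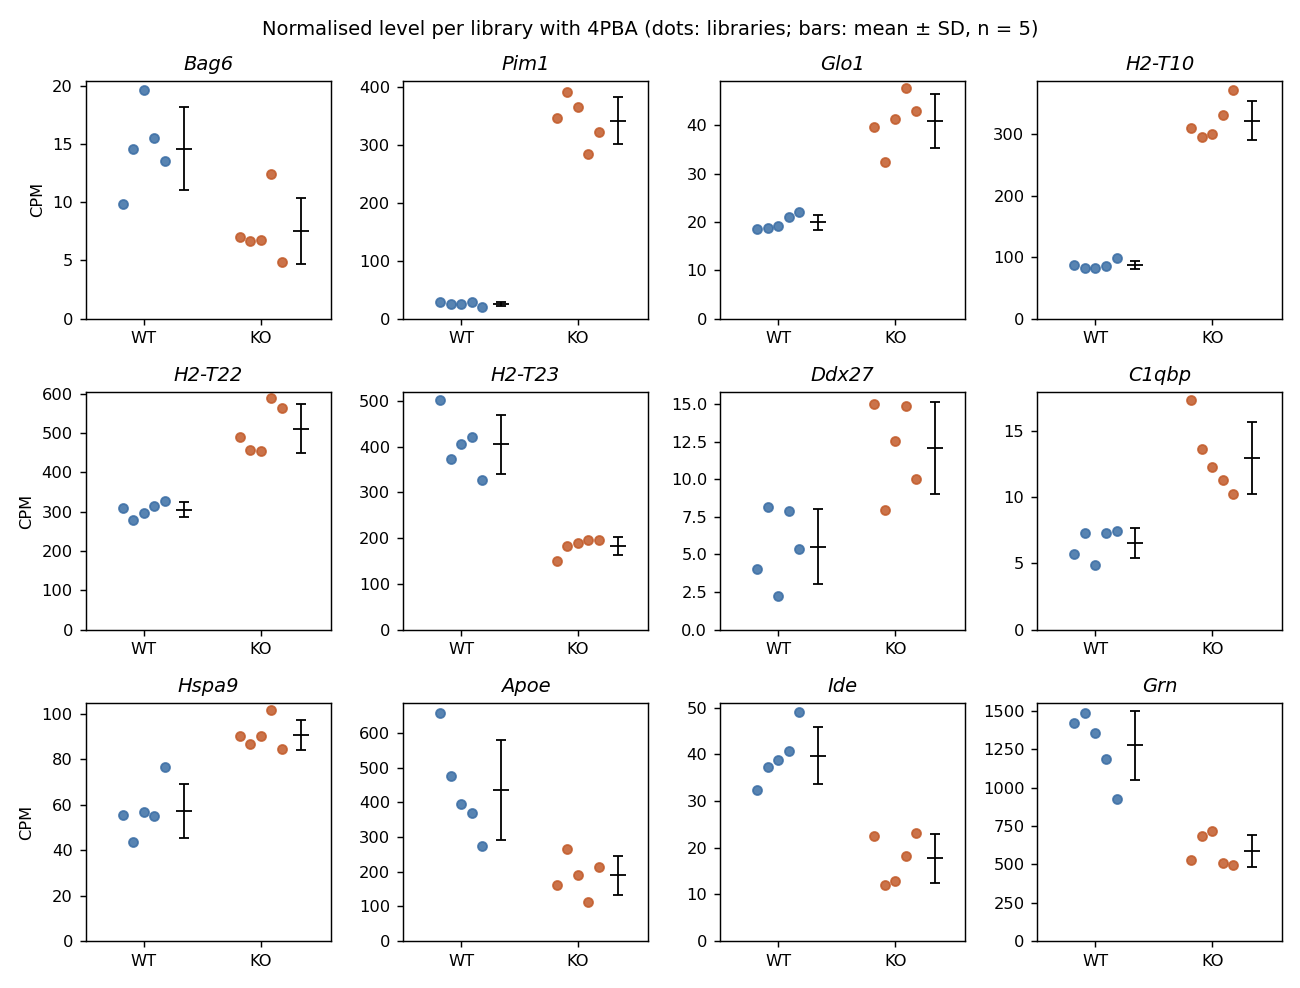
Level of 12 genes in CPM (vertical axis, from 0) in each WT and KO library with 4PBA, dots for libraries and bars for mean ± SD (n = 5). Pim1 in KO lies between 285 and 392 CPM against 19.3 to 29.1 CPM in WT, while for Bag6 the KO library at 12.4 CPM lies inside the WT range.

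Genes of the MHC class I family moved in both directions. Class I molecules are cell-surface heavy chains that pair with beta-2 microglobulin; the classical ones show peptides to CD8 T cells, and the non-classical ones of the T region are ligands of natural killer and gamma-delta T cell receptors. Of 19 tested class I genes, 5 rose and 2 fell, and the list's median log2 fold change was 0.15 against 0.00 for all genes. This list was drawn up with results of these data known, and its call count is no independent evidence. Without the library labelled KO replicate 4, 5 of the 7 were called.

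H2-T10, which with H2-T22 encodes a ligand of gamma-delta T cell receptors, had 86.5, 82.2, 82.6, 86.1 and 98.9 CPM in WT and 310.5, 296, 301, 332 and 372 CPM in KO libraries. All KO libraries lay above all WT libraries, 3.69-fold on average (log2 fold change 1.88 ± 0.20 SE, edgeR adjusted p = 1.72e-08). H2-T22 had 309, 279, 296, 314 and 328 CPM in WT and 490.5, 456, 453, 588 and 563 CPM in KO. Here too the genotypes did not overlap (0.74 ± 0.17, edgeR adjusted p = 0.0264), although this call was lost in 8 of 21 alternatives. The low-count class I genes Gm6034 and H2-Bl were close to absent in WT: 3 counts of Gm6034 over all WT libraries stood against 111 in KO, a ratio of 34.8 with a counting interval of 11.6 to 171.3 (95%), and 3 counts of H2-Bl stood against 68, a ratio of 21.3 (6.99 to 105.9). These intervals cover counting error only. Gm8909, another class I-like gene, averaged 1.56 ± 1.35 CPM in WT and 5.21 ± 0.700 CPM in KO (SD, n = 5 each, edgeR adjusted p = 0.0264). The Gm8909 call was lost in 9 of the 20 alternatives that tested it.

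H2-T23 encodes Qa-1, which shows leader peptides of other class I molecules to the CD94-NKG2A receptor of natural killer cells. It had 502, 373, 407, 420.1 and 327 CPM in WT and 151, 182, 190.3, 195 and 196 CPM in KO libraries. Its level fell 2.21-fold with no overlap (log2 fold change -1.15 ± 0.13 SE, edgeR adjusted p = 4.15e-08). H2-T9, another gene of the T region, had 974, 898, 971, 920.4 and 793 CPM in WT and 358, 369, 399, 345 and 463 CPM in KO. It too was lower in every KO library (-1.24 ± 0.19, edgeR adjusted p = 5.05e-05). The classical genes showed no such shift: H2-K1 averaged 6054 ± 357 CPM in WT and 6049.7 ± 499 in KO, H2-D1 7022 ± 679 and 7218 ± 541, and B2m, which encodes beta-2 microglobulin, 6644 ± 391 and 6901 ± 746 (SD, n = 5 each; edgeR adjusted p at least 0.923). H2-Q8, H2-Q4 and H2-Q9, further class I genes, had log2 fold changes of 0.66, 0.54 and 0.47 but did not pass (edgeR adjusted p = 0.217 to 0.238). With the 10 libraries fitted alone they passed (edgeR adjusted p = 0.0301 to 0.0333).

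Of the moved genes, H2-T23 and H2-T22 are next to each other among tested genes yet changed in opposite directions, and their promoters in RefSeq (GRCm38.p6, both on the minus strand, printed in the gene's direction) are shown for that reason. Capitals mark the interferon-stimulated response element, searched as GAAA, any 2 bases and GAAA on both strands, and matched here on the strand opposite to the gene. The H2-T23 stretch is chr17:36032652-36032951 and the H2-T22 stretch is chr17:36042693-36042992.
H2-T23 promoter: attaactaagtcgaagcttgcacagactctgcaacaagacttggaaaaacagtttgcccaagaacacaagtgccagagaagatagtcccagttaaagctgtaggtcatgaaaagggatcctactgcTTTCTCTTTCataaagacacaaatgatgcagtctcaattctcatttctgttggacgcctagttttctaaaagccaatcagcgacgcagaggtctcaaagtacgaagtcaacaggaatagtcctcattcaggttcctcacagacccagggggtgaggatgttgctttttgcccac
H2-T22 promoter: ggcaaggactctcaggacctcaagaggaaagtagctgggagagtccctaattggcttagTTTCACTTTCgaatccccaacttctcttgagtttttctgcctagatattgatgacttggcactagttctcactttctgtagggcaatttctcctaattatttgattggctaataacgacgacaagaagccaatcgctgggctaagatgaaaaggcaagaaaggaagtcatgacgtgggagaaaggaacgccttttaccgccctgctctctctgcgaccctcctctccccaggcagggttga
Each held 1 match, starting 124 bases before the start site in H2-T23 and 191 bases before it in H2-T22, and 3.44% of 32851 promoters held at least 1. Interferon-stimulated genes as a list had a median log2 fold change of -0.01 with 1 of 28 called.

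Class I genes share sequence, and counts can be split between copies. In the GENCODE transcripts, 31.7% of the 50-base words of H2-T10 also occur in H2-T22, 42.0% of those of Gm6034 occur in another gene, and 13.6% of those of H2-T23 and 12.4% of those of Gm8909 are shared. H2-T9 was not found there. Of the words of H2-T22 34.5% are shared, and of those of C920025E04Rik 29.4%, most with H2-T23, which moved the other way. A930015D03Rik shares 26.1%, and Pisd, outside this region, 18.5%. Levels of these genes are therefore uncertain, since the labels do not say how RSEM divided such reads beyond its name.

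In gene order, the called class I genes with a chromosome match, which H2-T9 lacks, sit in 1 stretch on 1 side of Bag6. Counting tested genes from Bag6, H2-T23 was in place 33, H2-T22 in 34, Gm6034 in 35, H2-Bl in 37, C920025E04Rik in 38, H2-T10 in 39 and Gm8909 in 40, with the unnamed transcript A930015D03Rik in place 31. Flot1, which encodes the membrane raft protein flotillin 1, was in place 18. Of the 10 tested genes to each side of Bag6, 0 of 20 were called. Within 50 genes to each side 9 of 100 were called, 7 higher and 2 lower (9%), within 100 genes 11 of 200 (5.5%), and among genes on other chromosomes or without a match the share was 0.401% of 9730. On the other side, Pim1 was in place -96 and Glo1 in place -89, at the far end of the stretch. Without the library labelled KO replicate 4, 7 genes within 50 and 9 within 100 were called. The KO animals carry an engineered allele of Bag6, and the labels do not state from which strain the flanking chromosome came, so an effect of flanking sequence and an effect of the deletion cannot be told apart for these genes.

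**Figure D3:**
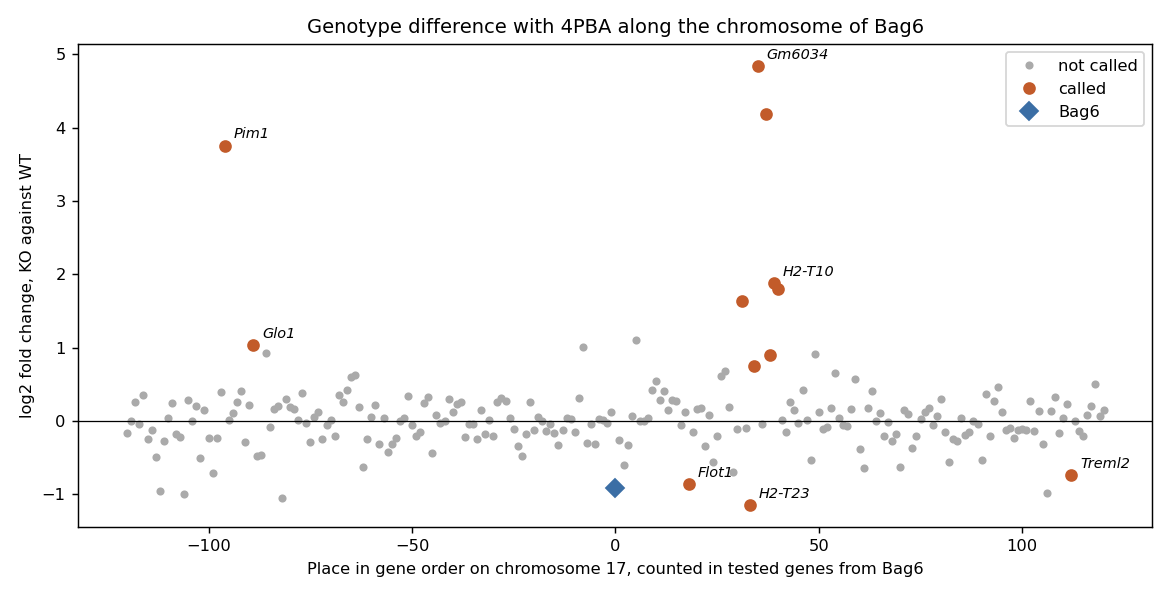
Log2 fold change KO against WT with 4PBA (vertical axis) of tested chromosome 17 genes by their place in gene order, counted from Bag6 at 0 (horizontal axis, up to 120 genes to each side). Called genes are in colour; Gm6034 at 4.84 and Pim1 at 3.75 stand at places 35 and -96, and no called gene lies within 10 places of Bag6.

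Glo1 encodes glyoxalase I, which removes methylglyoxal, a reactive by-product of sugar breakdown. It had 18.6, 18.8, 19.2, 21.1 and 22.1 CPM in WT and 39.7, 32.5, 41.4, 47.7 and 43.1 CPM in KO libraries. All KO libraries lay above all WT libraries (log2 fold change 1.03 ± 0.15 SE, edgeR adjusted p = 1.51e-05). C920025E04Rik, named as a class I pseudogene in RefSeq, rose from 105 ± 5.37 to 194 ± 13.5 CPM (SD, n = 5 each), and A930015D03Rik from 3.46 ± 1.31 to 11.3 ± 0.773 CPM (edgeR adjusted p = 8.55e-05 and 0.00123).

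Further genes higher in KO cells lay on other chromosomes. Hspa9 encodes mortalin, the Hsp70 chaperone of the mitochondrial matrix. It had 55.4, 43.7, 56.7, 54.9 and 76.6 CPM in WT and 90.2, 86.9, 90.1, 102 and 84.5 CPM in KO libraries, without overlap (log2 fold change 0.65 ± 0.14 SE, edgeR adjusted p = 0.0103). C1qbp, a matrix protein needed for mitochondrial translation, had 5.75, 7.28, 4.91, 7.32 and 7.45 CPM in WT and 17.3, 13.6, 12.3, 11.3 and 10.3 CPM in KO (0.94 ± 0.23, edgeR adjusted p = 0.0295). Pisd, which makes phosphatidylethanolamine in the inner mitochondrial membrane, rose from 35.3 ± 5.98 to 52.0 ± 2.28 CPM. Dnaja2, a cytosolic partner of Hsp70, rose from 101 ± 6.50 to 136 ± 11.1 CPM, the smallest fold among the called genes (0.42 ± 0.11, edgeR adjusted p = 0.0474). Genotypes did not overlap for any of these 4 genes, which was a condition for naming them. Their calls were less stable than that of Pim1: each was lost in 3 to 10 of 21 alternatives, and no alternative turned a direction.

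Prep encodes a cytosolic prolyl endopeptidase. Its level was 11.2, 11.98, 14.7, 19.7 and 19.1 CPM in WT and 33.2, 25.9, 27.3, 30.0 and 33.1 CPM in KO libraries, so that the lowest KO library lay above the highest WT library (log2 fold change 0.94 ± 0.16 SE, edgeR adjusted p = 0.000369). Polr2e, a subunit common to the nuclear RNA polymerases, rose from 16.2 ± 3.59 to 25.8 ± 2.92 CPM, and Ddx27, a helicase of ribosome assembly, from 5.53 ± 2.52 to 12.1 ± 3.07 CPM with an overlap at the lowest KO library. Hbegf, which encodes a membrane-bound growth factor of the epidermal growth factor family, rose from 14.4 ± 2.52 to 28.5 ± 5.64 CPM. For these 3 genes the spread is the SD (n = 5 each), and the edgeR adjusted p lay between 0.022 and 0.0377. The calls of Polr2e, Ddx27 and Hbegf were lost in 9, 5 and 11 of 21 alternatives.

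Among the lower genes, Grn encodes progranulin, a secreted glycoprotein that also acts in lysosomes, and had 1420.3, 1487, 1357, 1189 and 929.5 CPM in WT and 527, 685, 719.6, 509 and 496 CPM in KO libraries. The genotypes were well apart (log2 fold change -1.12 ± 0.15 SE, edgeR adjusted p = 4.76e-06). Tgfbi, which encodes an extracellular matrix protein induced by TGF-beta, had 630.4, 590.2, 799, 584 and 458 CPM in WT and 289, 439, 438, 261 and 310.0 CPM in KO. Its highest KO library lay just below its lowest WT library (-0.82 ± 0.15, edgeR adjusted p = 0.000884). Apoe, the lipid carrier apolipoprotein E, had 659, 475, 396, 371 and 275 CPM in WT and 162, 266, 191, 113 and 213 CPM in KO. The groups again met without overlapping (-1.20 ± 0.25, edgeR adjusted p = 0.013), and the call was lost without WT replicate 1, without KO replicate 1, without KO replicate 4, with the 10 libraries fitted alone and with code columns 4 to 6 only (edgeR adjusted p = 0.0569 to 0.675). Apoe is also on the macrophage marker list, of which 9 of 13 tested genes had a negative log2 fold change, with a median of -0.25 and Apoe alone called; the part of a different share of such cells in this result was not tested. In bulk RNA, fewer cells of a type and less RNA per cell cannot be told apart.

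Ide encodes the insulin-degrading enzyme, a cytosolic protease. Its level was 32.4, 37.2, 38.8, 40.8 and 49.1 CPM in WT and 22.4, 11.9, 12.9, 18.2 and 23.1 CPM in KO libraries (log2 fold change -1.17 ± 0.22 SE, edgeR adjusted p = 0.00164). Every KO library lay below every WT library, and Ide was 1 of 8 genes called in each alternative that tested it, the others being Pim1, Gm6034, H2-Bl, H2-T10, C920025E04Rik, H2-T23 and H2-T9.

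Pira2, an activating immunoglobulin-like receptor, averaged 123 ± 20.1 CPM in WT and 45.6 ± 18.3 in KO, but 93.0% of its 50-base words occur in other genes and its level is uncertain. Ifitm1, an interferon-induced membrane protein that hinders virus entry, had 95.3, 85.6, 104, 64.2 and 58.6 CPM in WT and 26.2, 33.5, 24.5, 14.4 and 55.9 CPM in KO. The highest KO library came close to the lowest WT library, and the call was lost in 12 of 21 alternatives (log2 fold change -1.39 ± 0.34 SE, edgeR adjusted p = 0.0451). Siglec1, the sialic acid receptor CD169, fell from 137 ± 19.7 to 80.7 ± 11.4 CPM, and Ifi27l2a, an interferon-induced gene, from 1132 ± 87.0 to 759 ± 79.3 CPM. Siglec1 and Ifi27l2a were picked out after their values were seen, as were Treml2 and Myh9 below.

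Lower enzymes included Hmgcs1, which makes the HMG-CoA used for sterols, with 72.7, 58.2, 74.5, 91.2 and 59.8 CPM in WT and 36.5, 41.1, 28.5, 39.0 and 38.0 CPM in KO libraries, without overlap (log2 fold change -0.96 ± 0.21 SE, edgeR adjusted p = 0.0178). Gstt1, a glutathione transferase, fell from 29.5 ± 2.48 to 12.8 ± 4.70 CPM. Gda, guanine deaminase, fell from 52.9 ± 5.90 to 28.7 ± 10.1 CPM, and Tmem86a, which breaks down lysoplasmalogens, from 77.9 ± 13.04 to 41.5 ± 11.1 CPM. Ido2, a relative of the tryptophan-degrading enzyme IDO1, was low in both groups, with 10.8, 11.98, 10.3, 4.78 and 10.7 CPM in WT and 2.34, 3.32, 2.15, 2.48 and 1.14 CPM in KO. It had the largest fall among called genes, 4.19-fold (-2.07 ± 0.46, edgeR adjusted p = 0.0178). The Ido2 call was lost in 6 of the 20 alternatives that tested it. Selm, which encodes the ER selenoprotein M, fell from 34.1 ± 8.39 to 14.2 ± 6.26 CPM, and Flot1 from 57.2 ± 4.21 to 31.5 ± 2.94 CPM (SD, n = 5 each; edgeR adjusted p = 0.0178 and 0.000122). Treml2, a receptor of the TREM family, lay in place 112 from Bag6 on chromosome 17 and fell from 33.7 ± 4.82 to 20.0 ± 2.46 CPM, and Myh9, the heavy chain of non-muscle myosin, fell from 69.9 ± 5.17 to 47.1 ± 5.95 CPM.

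Most gene groups held no or few called members. With 0.496% of all genes called, lists of this size would hold few calls in any case, so none passing says little. Over all 10287 genes, 1091 had an unadjusted p under 0.05 and 5159 were positive. These counts are the background for the lists here and in the next paragraph. Of 18 tested genes of the BAG6 complex and the tail-anchored route, none passed in edgeR and 2 had an unadjusted p under 0.05; their median log2 fold change was -0.03, ranging from -0.91 for Bag6 itself to 0.69 for Wrb, an ER receptor of that route. Get4, which joins BAG6 to its substrates, averaged 22.2 ± 2.78 CPM in WT and 19.9 ± 5.96 in KO, and Sgta, the co-chaperone that loads tail-anchored proteins, 88.6 ± 9.52 and 87.4 ± 6.73. Of 30 proteasome subunits none passed (1 with an unadjusted p under 0.05), nor did any of 16 tested cytosolic heat shock genes (0 with an unadjusted p under 0.05). Of 32 ER folding and XBP1-ATF6 genes, 22 were positive and 1 passed, the falling Selm. Hspa5, the ER Hsp70 chaperone BiP, had 466, 513, 495, 464 and 584 CPM in WT and 608, 635, 689, 675 and 597 CPM in KO. Its genotypes did not overlap, but the difference did not pass (0.35 ± 0.12, edgeR adjusted p = 0.234). Of 23 genes of the PERK-ATF4 response none passed (4 with an unadjusted p under 0.05), with a median of 0.08.

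The 37 listed cytosolic ribosomal protein genes each had a negative log2 fold change, with a median of -0.32 and a range from -0.52 to -0.03, but none passed the test and 10 had an unadjusted p under 0.05. Rps27, which is not on the list, had a value of 0.10. Libraries stood apart here: the list summed to 13375, 12465, 12816, 12822 and 9575 CPM in WT and to 8504, 13176, 11971, 8385 and 7695 CPM in KO libraries. KO replicates 1, 4 and 5 lay below every WT library, KO replicates 2 and 3 lay within the WT range, and WT replicate 5 was the lowest of its group. For Rps2 WT averaged 458 ± 33.7 CPM and KO 319.9 ± 35.3 CPM, the only member without overlap between genotypes. Of 24 sterol synthesis and uptake genes 21 were negative, with a median of -0.26, and Hmgcs1 alone passed. Complement genes and Apoe were negative in 13 of 14, with a median of -0.24, and Apoe alone passed. C1qc, a chain of the first complement component, had 58.5, 70.6, 48.2, 43.9 and 22.6 CPM in WT and 12.2, 15.6, 17.2, 11.7 and 15.7 CPM in KO. The groups did not overlap, yet the difference did not pass with all libraries fitted (-1.73 ± 0.54, edgeR adjusted p = 0.17). Glycolysis and hypoxia genes were positive in 25 of 30, with a median of 0.09 and none called (3 with an unadjusted p under 0.05). Monocyte markers were negative in 10 of 10, with a median of -0.38 and none called (3 with an unadjusted p under 0.05), and they summed to between 3813 and 4483 CPM in WT and between 2690 and 4173 CPM in KO libraries. Lysosomal genes were split, 14 positive and 19 negative, with Grn alone called among 33. The part of cell makeup in these shifts was not tested.

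**Figure D4:**
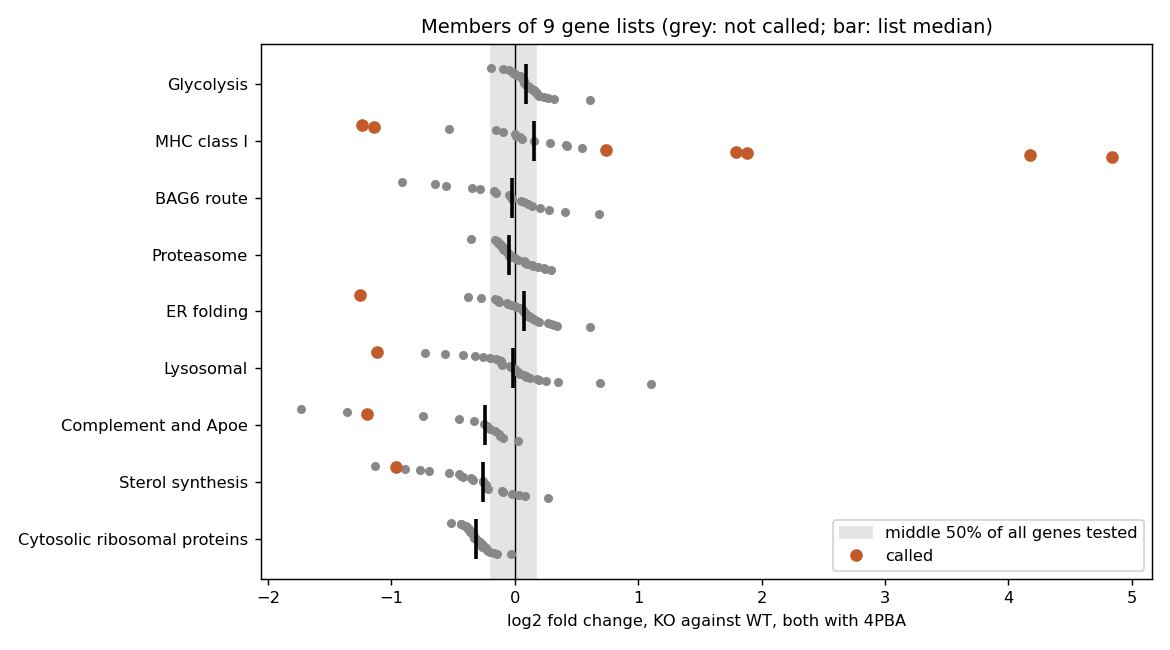
Log2 fold change KO against WT with 4PBA (horizontal axis) of the tested members of 9 gene lists, grey dots for genes that were not called, coloured dots for called genes, bars for list medians and a band for the middle 50% of all genes. The 37 listed ribosomal protein genes lie below 0 with a median of -0.32 and no call, while class I genes reach from -1.24 to 4.84.

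The same genotypes were also compared in medium, with LPS and with 4µ8C, an inhibitor of the IRE1 RNase, each in 10 further libraries that share none with the 4PBA groups. They are not independent sets: same-numbered KO libraries deviated together, with correlations of 0.564 to 0.621 between KO with 4PBA and KO with 4µ8C and of 0.422 to 0.721 between KO with 4PBA and KO with LPS. For WT with 4PBA the correlations were 0.133 to 0.568 with medium, 0.112 to 0.592 with LPS and -0.0374 to 0.643 with 4µ8C. Between genotypes in medium, with LPS and with 4µ8C, 918 (8.92%), 623 (6.06%) and 98 (0.953%) of 10287 genes were called. By direction, 6.61% of genes were higher and 2.31% lower in KO in medium, 4.31% and 1.75% with LPS, and 0.428% and 0.525% with 4µ8C. Of the 51 genes called with 4PBA, 28 were called in the same direction in medium (54.9% of the 51 and 3.05% of the 918), 23 with LPS (45.1% and 3.69%) and 24 with 4µ8C (47.1% and 24.5%). In sign, 41, 43 and 48 of the 51 agreed in medium, with LPS and with 4µ8C. The same direction was called in all 3 others for 17 genes, 8 higher and 9 lower, among them Pim1, H2-T10, Glo1, Grn, Ide, Tgfbi, Flot1 and Serinc3. No other comparison called 18 of the genes alike, 7 higher and 11 lower, which includes Hspa9, C1qbp, Prep, Polr2e, Pisd, Dnaja2, Gstt1 and Ido2. For Gstt1 the log2 fold change was -1.21 with 4PBA, 0.07 in medium, -0.46 with LPS and -0.60 with 4µ8C.

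**Figure D5:**
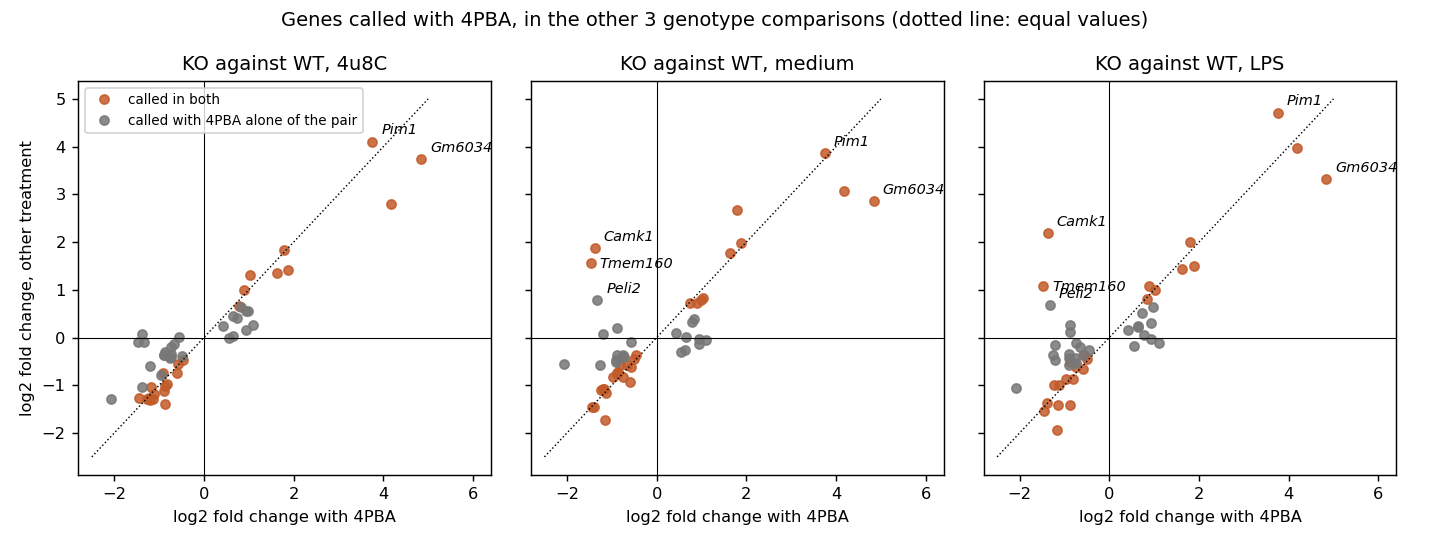
Log2 fold change KO against WT of the 51 genes called with 4PBA (horizontal axis) against the value of the same gene with 4µ8C, in medium or with LPS (vertical axis, 1 panel each), in colour where the gene was called in both. Pim1 lies at the upper right of each panel, at 3.75 with 4PBA against 4.11, 3.86 and 4.71, and Camk1 and Tmem160 lie above 0 in medium and with LPS but below 0 with 4PBA.

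Whether the genotype difference itself changed with treatment was tested as a difference of differences. Against 4µ8C 0 of 10287 genes were called (0%; 513 with an unadjusted p under 0.05 in edgeR, 0 called by DESeq2, 20 with the term for outer codes described next), so in that fit none of the 51 was shown to differ between these 2 treatments. Against medium 487 genes were called (4.73%), 32 with a more positive genotype difference under 4PBA (0.311%) and 455 with a more negative one (4.42%). Against LPS 357 were called (3.47%), 44 more positive (0.428%) and 313 more negative (3.04%). All WT medium and WT LPS libraries have codes at the edge of the plate, and with a term for outer codes the counts fell to 126 and 99. In the 4 groups that hold both outer and inner codes, 350 of 9557 genes (3.66%) differed between outer and inner libraries. The more positive differences fell to 3 against medium and 9 against LPS with the term, and against 4µ8C the count rose from 0 to 20, all more negative. With a replicate block within genotype the more positive ones were 68 and 104. Position and treatment can only in part be told apart in these differences.

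Of the 51 genes, 10 differed between 4PBA and medium and 7 between 4PBA and LPS, and 3 of each remained called with the outer term. Camk1, a calcium/calmodulin-dependent kinase, had 18.9, 26.5, 17.4, 16.3 and 20.2 CPM in WT and 9.82, 4.31, 5.82, 10.6 and 7.42 CPM in KO with 4PBA. It was lower in all 5 KO libraries here (log2 fold change -1.38 ± 0.33 SE, edgeR adjusted p = 0.0288), whereas the value was 1.87 in medium and 2.18 with LPS. The Camk1 call with 4PBA was lost in 9 of 21 alternatives, and none turned its direction. Tmem160, a mitochondrial membrane protein, had 13.5, 25.2, 16.5, 16.0 and 17.2 CPM in WT and 4.68, 7.30, 4.597, 7.21 and 7.42 CPM in KO, and its log2 fold change was -1.47 ± 0.30 with 4PBA, 1.57 in medium and 1.09 with LPS. With the outer term the difference from medium shrank from -3.25 to -2.01 for Camk1 and from -3.04 to -1.89 for Tmem160. Both were also lower in outer than in inner libraries, by -1.25 and -1.16 on the log2 scale (edgeR adjusted p = 0.000347 and 0.000477), and they were the 2 genes among 49 of the 51 tested for it that differed by position. Pim1 rose less with 4PBA than with LPS, by -0.96 ± 0.18 on the log2 scale (edgeR adjusted p = 0.000514), and the difference remained with the outer term at -0.89 ± 0.20 (edgeR adjusted p = 0.00844).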

How the data were processed

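Reads were counted per gene by the authors with RSEM after bcl2fastq, per the submitters' processing notes, which give no versions. The deposited expected counts are estimated reads per gene without normalization, per the file headers; 9.09% were not whole. The deposited TPM values, per the file headers scaled for gene length and depth, served for a second exact permutation test of Bag6 (6.15 ± 1.48 in WT, 3.23 ± 1.25 in KO, SD, n = 5 each; p = 0.016). Not given in the sources used here: build, aligner and annotation. Of 23420 genes per file, 23074 had a RefSeq (GRCm38.p6) transcript match, 218 a symbol match and 128 no match, among them H2-T9 and 1500012F01Rik.

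Expected counts were rounded and fitted with edgeR 4.0.16 (limma 3.58.1, R 4.3.3): 45 libraries, 9 group means, TMM factors, filterByExpr, robust quasi-likelihood F tests, two-sided, called at a Benjamini-Hochberg adjusted p under 0.05. The common dispersion was 0.0372, with 36 residual degrees of freedom. SE were derived from the F statistic. The test was checked on simulated counts, drawn independently for each gene and library, where 9 of 133 calls were false. DESeq2 1.42.0, other scalings and filters, the 10 libraries alone, an outer code term, code columns and leaving out each replicate were alternatives. Rn45s, a ribosomal RNA precursor, made up 9.57% to 12.31% of counts.

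Members and lists (49 gene groups, 13 marker lists) were chosen with earlier results of these data known. Named were, among calls without overlap whose higher group reached 10 CPM, the 15 largest each way (13 and 15 found), for each difference between treatments the 5 largest each way (some not reported here), list members, genes called alike under all 4 treatments, called genes near Bag6, and a few stated to be picked later. Same-numbered libraries of 4PBA and medium, and of 4PBA and LPS, correlated above 0.1 in every pair within each genotype, as did KO with 4PBA and 4µ8C (0.564 to 0.621) but not WT with 4PBA and 4µ8C (-0.0374 to 0.643), so a block within genotype was fitted for the differences; KO and WT with 4PBA did not (-0.154 to 0.194).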

Additional observations from a re-analysis of the deposited data

Results flagged for a closer look

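Among the 5 libraries of a group, 1 stood apart from the other 4 in 6 of 104 groups checked over Bag6 and the 51 called genes, by a gap of over 0.71 of the group's range; chance gives about 1 in 20. Bag6 in KO replicate 4 was 12.4 CPM against 4.85 to 7.01 in the other KO libraries, and Peli2, a ubiquitin ligase of Toll-like receptor signalling, was 6.76 CPM in the same library against 1.87 to 2.99. H2-T10 in WT replicate 5 was 98.9 CPM against 82.2 to 86.5, Pkp3, a desmosomal protein, in WT replicate 3 was 26.3 CPM against 21.3 to 22.7, A930015D03Rik in KO replicate 1 was 12.6 CPM against 10.6 to 11.1, and Ido2 in WT replicate 4 was 4.78 CPM against 10.3 to 11.98.

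The genotype difference with 4PBA differed from that in another treatment for genes among the 51, given here as log2 differences (edgeR, adjusted p under 0.05). It was larger than in medium for Ddx27 (1.16), C1qbp (1.08), Prep (0.97), Hspa9 (0.65), Polr2e (0.90) and Pisd (0.86), and lower for Gltscr1 (-1.07), Peli2 (-2.12), Camk1 (-3.25) and Tmem160 (-3.04). Against LPS it was larger for Ddx27 (1.21) and Pisd (0.72) and lower for Pim1 (-0.96), Gltscr1 (-1.14), Peli2 (-2.0), Camk1 (-3.56) and Tmem160 (-2.56). With the outer code term Peli2, Camk1 and Tmem160 remained called against medium, and Pim1, Camk1 and Tmem160 against LPS, most of them smaller: Camk1 was -2.01 and -2.53 against medium and LPS, Tmem160 -1.89 and -1.57, Peli2 -1.68 against medium and Pim1 -0.89 against LPS.

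Over all genes, the largest such differences against medium were those of Marco (1.57), a scavenger receptor, Cxcr2 (1.41), a chemokine receptor, Nptn (1.34), Ddx27 and Cd300lb (1.15), and in the other direction Cebpb (-5.36), a myeloid transcription factor, Phlda3 (-4.81), Fst (-4.72), the activin-binding follistatin, Ndnl2 (-4.71) and Syap1 (-4.54). Against LPS they included Lrp8 (1.46), Bop1 (1.45), Spred1 (1.31) and Rad17 (1.31), and Cebpb (-5.43), Rps27 (-4.94), whose sequence shared with other genes was not measured, Rnf187 (-4.59), Bloc1s4 (-3.81) and Marcksl1 (-3.74). With the outer code term Cd300lb, Syap1, Ndnl2, Fst and Cebpb remained called against medium, and Spred1, Rad17, Marcksl1, Rnf187 and Cebpb against LPS. The negative ones among these were smaller with it, against medium -3.23 for Cebpb, -2.83 for Syap1, -2.998 for Ndnl2 and -3.85 for Fst, and against LPS -3.47 for Cebpb, -2.20 for Marcksl1 and -2.31 for Rnf187 (log2). In the fit of all libraries without that term, Ddx27 alone of these passed the genotype comparison with 4PBA. With the term Cebpb, Syap1, Ndnl2, Marcksl1, Rnf187 and Bloc1s4 passed too (edgeR adjusted p = 0.000425 to 0.0488), and with the 10 libraries alone Syap1, Ndnl2, Marcksl1, Rnf187 and Fst (edgeR adjusted p = 0.00192 to 0.032). Without the term Cebpb had a log2 fold change of -1.85 (edgeR adjusted p = 0.155), 37.6 ± 18.6 CPM in WT libraries and 10.7 ± 5.64 CPM in KO libraries (SD, n = 5 each).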

How the results depend on the processing

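No called gene reversed in any alternative, and 801 of 1066 comparisons of a called gene with an alternative kept their side of the threshold. The 51 calls became 87 with DESeq2 (33 higher, 54 lower), 198 with the 10 libraries alone (60 and 138; 2.11% of 9363 genes), 148 with the outer code term (33 and 115; 1.44%) and 9 with code columns 4 to 6 only (6 and 3), where each genotype has 3 libraries; without a filter 19 lower genes were called. All 51 were among the calls of DESeq2 and of the outer term, and 48 among the 198. Leaving out 1 library gave 22 to 61 calls, 9 to 25 higher and 13 to 36 lower: 24, 29, 31 and 31 without WT replicates 1 to 4, 23 without KO replicate 1 and 22 without KO replicate 4. Bag6 passed with DESeq2 (-0.91, adjusted p = 0.0306), with the outer term (-0.91, edgeR adjusted p = 0.0362) and without KO replicate 4 (-1.21, edgeR adjusted p = 0.0154); its leave-one-out range was -1.21 to -0.78, with edgeR adjusted p up to 0.256. The differences between treatments fell with the outer term from 487 to 126 (medium) and from 357 to 99 (LPS) and rose from 0 to 20 (4µ8C); the more positive ones fell from 32 to 3 and from 44 to 9, and against LPS they were 68 with DESeq2 and 29 without a filter; leaving out 1 library gave 425 to 496, 285 to 477 and 0 to 0. The cause was not tested.

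KO and WT with 4PBA share replicate numbers alone. With a replicate block 54 genes were called (16 higher, 38 lower), 48 of them among the 51, and Bag6 passed (-0.97, edgeR adjusted p = 0.0494); 1 of 5 KO libraries correlated best with its own number. Blocked within genotype, the differences gave 576, 495 and 0 calls, with 68 and 104 more positive ones against medium and LPS in place of 32 and 44.

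Totals of 1945718 to 4081185 counts limit what low genes can show: Bag6 had at most 58 counts in a library.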

Other observations

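A wider set of 124 genes was called both when the 10 libraries were fitted alone and when an outer code term was added to the fit of all libraries, 29 higher and 95 lower in KO, a set chosen after seeing the data. It holds 48 of the 51 genes and 76 others, 11 higher and 65 lower. Higher genes included Tnfsf15, the TNF family ligand TL1A (60.2 ± 12.6 CPM in WT, 109 ± 22.7 CPM in KO libraries as mean ± SD over 5; log2 fold change 0.86 in the fit without the term), Atp6v0d2, a subunit of the lysosomal proton pump of macrophages (0.69), the metallothionein Mt1 (0.47) and Tank (0.39), an adaptor of TNF receptor signalling. None of these 4 passed the test of outer against inner codes (edgeR adjusted p 0.546 to 0.816). Lower genes included C1qc (-1.73), Sfpi1, which encodes the myeloid transcription factor PU.1 (-1.17), the GTPase Rac1 (-1.02), the integrin chain Itgb7 (-0.88), Lamp1 (-0.73), a lysosomal membrane protein, and the cholesterol exporter Abcg1 (-0.48).

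Of these 65 lower genes, 54 (83.1%) were also lower in outer than in inner libraries in the 4 groups that hold both, where 350 of all 9557 genes (3.66%) differed. The 65 passed with the outer term and not without it, a choice that can raise this share. Among the 11 higher genes, chosen by the same rule, the share was 0 of 11 (0%). How far the choice set the share was not tested, and no cause is read from it. Among the 32 lower genes of the 51 the share was 2 of 31 tested (6.45%), and among the 19 higher genes 0 of 18. None of the 10 libraries has an outer code. Sfpi1, Rac1, Itgb7, Lamp1 and C1qc were among the 54, and Abcg1 was not. The part of plate position or of sample handling in the difference of these 54 genes was not tested.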
